A study of Mus musculus with 3 samples.

Results

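Wing cells are the middle layers of the corneal epithelium, between the basal cells and the flat cells of the surface. Those that carried the mucosal keratins Krt4, Krt13 and Krt19 were compared here with those that carried few or none. Of 38111 cells in 3 single-cell libraries, 13447 had the authors' label for wing cells, and 13408 of these held at least 2000 UMIs, the unique molecular identifiers that count captured transcripts. For each of these cells k was the share of its UMIs that came from the 3 keratins. A cell was high at k of 0.0015 or more, which is 1500 CPM (a count scaled to a fixed total per cell or per sum of cells), and low below it. The sides were thus chosen by the measured UMIs of Krt4, Krt13 and Krt19. This put 4757 cells on the high side and 8651 on the low side, and the 39 wing cells under 2000 UMIs were left out. These 3 keratins are therefore described and not tested.

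All mice were C57BL/6J without treatment, and no other genotype or agent was part of the design. Library 1 was made from 4 corneas of 2 male mice of 20 weeks, library 2 from 4 corneas of 2 female mice of 11 weeks, and library 3 pooled 7 corneas from 7 males aged 10 weeks. Corneas were pooled within a library, so the libraries are the replicates and age, sex and pool size cannot be told apart between them. The high side held 1187, 1185 and 2385 cells in libraries 1, 2 and 3, or 36.1%, 33.8% and 36.1% of the wing cells. The comparison asks whether k follows the course from early to late wing cells, and what else sets the sides apart.

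In the stratified epithelium of the cornea, cells leave the basal layer, become wing cells joined by many desmosomes, and end as flat surface cells sealed by tight junctions and coated with membrane mucins. Keratins form the intermediate filaments of these cells as pairs of a type I and a type II protein. Krt12 with Krt5 is the pair known for the cornea, and Krt13 with Krt4 is the pair of moist, non-cornified linings such as the conjunctiva, the mouth and the oesophagus. Krt19 is a small type I keratin known from the conjunctiva and from simple epithelia.

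Krt13, Krt15 and Krt19 lie near each other on chromosome 11, all on the minus strand (GRCm38, GENCODE release 21: Krt13 at chr11:100117327-100121566, Krt15 at chr11:100131758-100135928, Krt19 at chr11:100140810-100148665). Krt4 lies in the type II cluster at chr15:101918535-101924735, also on the minus strand. The promoters of 3 genes are printed, from 250 bases before to 50 bases after the start of the gene in RefSeq (GRCm38.p6). They are those of Krt13, the keratin that carried most of k, of Asprv1, a surface-cell protease high in the cells with the keratins, and of Col17a1, a hemidesmosome collagen low in them. Capitals mark CACCC on either strand, the core that Kruppel-like factors are known to bind.
Krt13, chr11:100121517-100121816, minus strand: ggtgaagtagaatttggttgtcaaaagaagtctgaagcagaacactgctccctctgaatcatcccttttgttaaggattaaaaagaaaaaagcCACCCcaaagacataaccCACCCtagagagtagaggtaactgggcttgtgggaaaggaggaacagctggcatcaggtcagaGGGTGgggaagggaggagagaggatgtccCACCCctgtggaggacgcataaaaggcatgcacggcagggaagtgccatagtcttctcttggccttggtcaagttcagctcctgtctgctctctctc
Asprv1, chr6:86627924-86628223, plus strand: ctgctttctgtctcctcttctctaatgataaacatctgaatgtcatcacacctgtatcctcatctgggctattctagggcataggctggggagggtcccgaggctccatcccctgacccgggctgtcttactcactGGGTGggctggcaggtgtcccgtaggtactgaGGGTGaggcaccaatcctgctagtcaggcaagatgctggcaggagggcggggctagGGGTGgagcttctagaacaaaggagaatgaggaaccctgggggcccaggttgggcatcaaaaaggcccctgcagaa
Col17a1, chr19:47691993-47692292, minus strand: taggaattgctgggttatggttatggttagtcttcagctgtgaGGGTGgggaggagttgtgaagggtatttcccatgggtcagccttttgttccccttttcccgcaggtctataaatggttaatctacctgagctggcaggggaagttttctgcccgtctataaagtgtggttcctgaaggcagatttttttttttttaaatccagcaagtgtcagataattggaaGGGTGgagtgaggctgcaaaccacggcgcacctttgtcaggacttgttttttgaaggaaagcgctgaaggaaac
The window of Krt13 held 4 matches to CACCC, that of Asprv1 3 and that of Col17a1 2. At least 1 match was found in 57.5% of 32851 promoters of the same length, so the presence of the motif sets none of the 3 windows apart. The Krt13 window also held 1 match to TGANTCA, the AP-1 motif (7.81% of promoters held it), and no GGGCGG (35.7% of promoters), both searched on both strands. A second listed start of Krt13 had 1 CACCC and 2 TGANTCA. A match is a description of these letters and not a binding site.

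The libraries held 187340736, 177449217 and 190393121 UMIs over 17931 genes. Wing cells of the low side were on average shallower, with a median of 16878, 14102 and 9902.5 UMIs against 24927, 20655 and 12374 on the high side in libraries 1, 2 and 3. When every cell was thinned to 2000 UMIs, 37.6%, 36.4% and 37.9% of cells were high, and 93.5%, 92.9% and 93.9% stayed on their side. The 8 wing markers, which include Krt12, Krt5, Lypd3 and Notch3, summed to 47996, 44561 and 46173 CPM on the low side and 43011, 39583 and 40134 CPM on the high side. Most of each sum was Krt12 and Krt5, with means of 31508 and 10601 CPM in low and 24946 and 9531 CPM in high cells. Both sides thus carried Krt12 and Krt5, and the sums say little of the other markers. In all 142 cell barcodes occurred in more than 1 library. Wing cell sums of the libraries differed from each other far beyond counting noise (chi-square over degrees of freedom from 33.1 to 97.8), so no library repeats another.

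Krt13 was the bulk of k in the high cells, and the 3 keratins were not in the proportions of conjunctival cells. On the high side Krt13 had 4237, 4237 and 4305 CPM in libraries 1, 2 and 3, against 327, 352 and 295 CPM on the low side. Krt4 had 554.5, 711 and 427 CPM against 28.3, 40.5 and 19.4 CPM. Krt19 had 343, 433 and 448 CPM against 34.7, 35.8 and 36.1 CPM. Krt13 varied little between libraries on the high side, while Krt4 was highest in library 2 and lowest in library 3. In these sums Krt13 made up 81.5% ± 2.38 (SD, n = 3 libraries) of the UMIs of the 3 keratins, Krt4 10.7% and Krt19 7.79%.

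**Figure D1:**
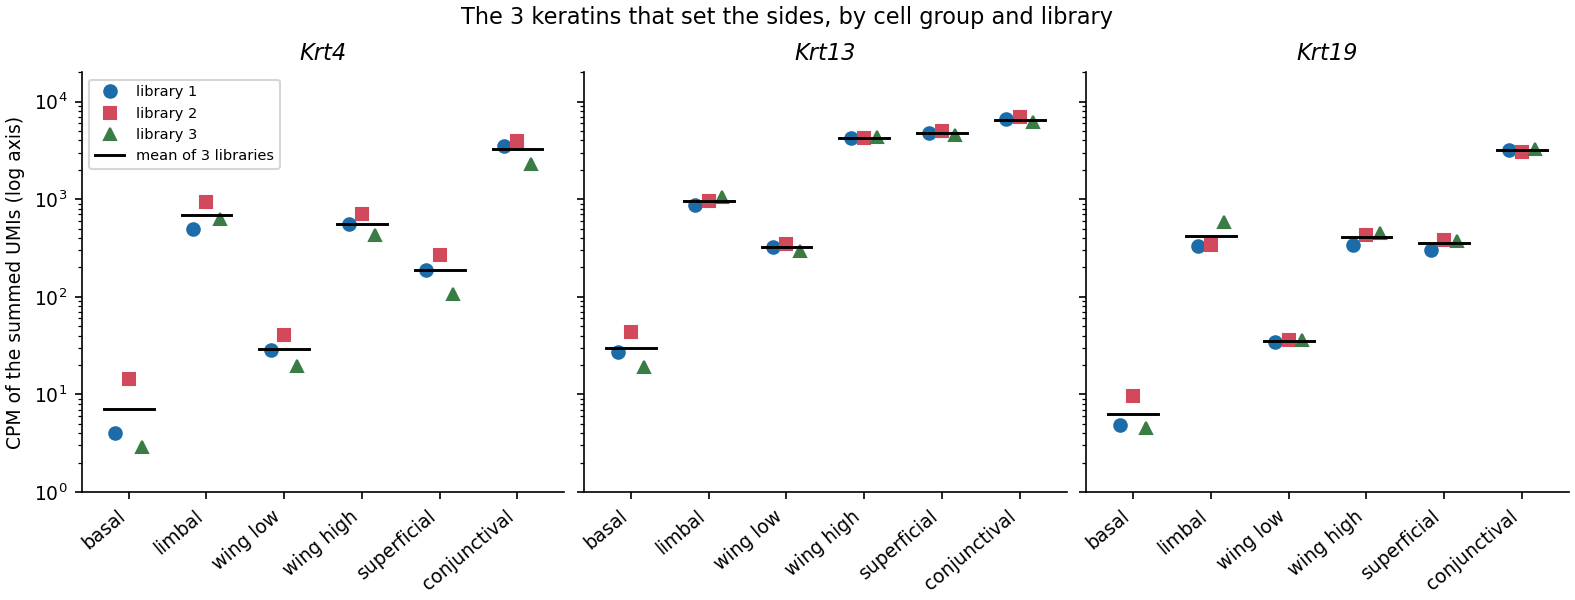
CPM of Krt4, Krt13 and Krt19 (log axis) in sums of cells of each class and library, with points for the 3 libraries and lines for their mean. High wing cells sit near superficial cells for Krt13 and between superficial and conjunctival cells for Krt4.

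Other classes of the data place these values. Superficial cells, the surface layer, had 4744 ± 203 CPM of Krt13, 187 ± 79.2 CPM of Krt4 and 352 ± 41.7 CPM of Krt19 (mean ± SD, n = 3 libraries). Conjunctival cells, from the lining around the cornea, had 6557 ± 391, 3236 ± 866 and 3167 ± 101 CPM. Relative to the 3-keratin sum, high wing cells had 30.8 ± 1.61 percentage points more Krt13 than conjunctival cells. Against superficial cells their Krt13 share differed by -8.37 ± 1.20 points. Their Krt4 share was 7.25 ± 1.18 points above that of superficial cells and their Krt19 share 1.12 ± 0.238 points above. These shares come from the UMIs that chose the high cells and are given without a test.

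Cells above the threshold were common among superficial and conjunctival cells and rare among basal cells and cells labelled TAC1 or TAC2. Among cells of at least 2000 UMIs, 2 of 8596 basal cells (0.0233%), 4 of 4106 cells labelled TAC1 (0.0974%) and 28 of 2999 labelled TAC2 (0.934%) were above it. The share was 23.5% in limbal cells, 35.5% in wing cells, 80.8% in superficial cells and 93.5% in conjunctival cells. Wing cells thus lay above the basal, TAC1, TAC2 and limbal classes and below superficial cells, and their share differed little between libraries.

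At equal depth nearly every high cell held Krt13, and fewer held Krt4 or Krt19. Thinned to 2000 UMIs, 98.0%, 97.3% and 97.4% of high cells had a Krt13 UMI in libraries 1, 2 and 3. Krt4 was seen in 31.2%, 36.0% and 27.7% of them and Krt19 in 26.3%, 30.1% and 33.4%. All 3 keratins were seen together in 9.86%, 14.9% and 12.1%. Of low cells 28.0%, 32.5% and 26.0% had a Krt13 UMI after thinning. Basal cells thinned in the same way from a median of 13262.5, 9962 and 5933 UMIs had one in 5.66%, 9.21% and 4.11%. The part of free RNA in these shares was not tested. At full depth 31.2%, 23.3% and 43.6% of low cells had no UMI of any of the 3. The median k was 3928, 4178 and 4431 CPM in high cells and 102, 177 and 84.2 CPM in low cells.

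The share of high cells followed the course from early to late wing cells. The course was measured without any keratin, by an index that gives for each cell the UMIs of 50 late genes as a share of those of 50 late and 50 early genes. Late and early genes were the largest differences between superficial and basal cells, chosen without wing cells. Among cells of at least 2000 UMIs the mean index was 0.0112 in basal, 0.987 in superficial and 0.663 in conjunctival cells. A high index is thus not particular to late corneal cells, and the part of conjunctival character in it was not tested. The mean index was 0.716, 0.684 and 0.761 in high cells of libraries 1, 2 and 3 and 0.137, 0.138 and 0.193 in low cells. Every library had the high side far above the low side. The difference was 0.564 ± 0.0170 (SD, n = 3 libraries), with the same sign in 3 of 3 libraries and an exact two-sided sign-flip permutation p of 0.25, the smallest that 3 libraries allow. With an index from the fixed superficial and basal markers, 6 late and 7 early genes, the difference was 0.0551. That index was 0.966, 0.963 and 0.976 in high cells and 0.896, 0.911 and 0.932 in low cells, near its upper end on both sides.

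Wing cells of each library were then cut into 10 deciles of the index. In the earliest decile 0%, 0.855% and 1.36% of cells were high, and in the latest decile 91.8%, 88.6% and 87.7%. The difference of 88.6 ± 2.80 percentage points again had an exact sign-flip permutation p of 0.25. The share passed the middle of its range between the 6th decile, with 28.6%, 24.5% and 36.2%, and the 7th, with 58.7%, 49.4% and 60.7%. An earliest decile with 0 high cells of 329 in library 1 allows a share of up to 0.912%, counting error alone. Across single cells k and the index had a Spearman correlation of 0.791, 0.767 and 0.766 over 3288, 3507 and 6613 cells. These points share their library and their depth, and after thinning to 2000 UMIs the correlations were 0.714, 0.660 and 0.715. With the index from fixed markers they were 0.554, 0.453 and 0.454, and the difference in share between the latest and the earliest decile was 61.5 points.

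**Figure D2:**
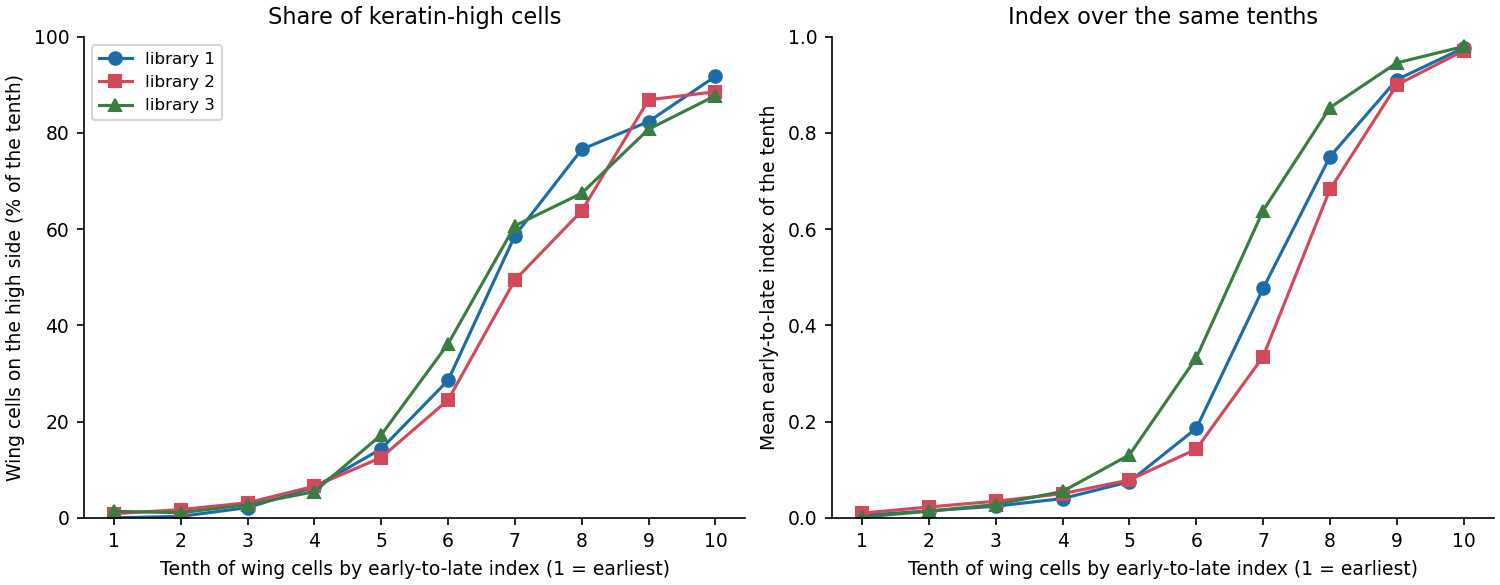
Percent of wing cells with k of 1500 CPM or more in each decile of the early-to-late index, and the mean index of the same deciles, with 1 line for each of the 3 libraries. The share goes from under 2% in the earliest decile to 87.7% to 91.8% in the latest, with the steepest part around the 6th and 7th deciles.

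The 3 keratins did not climb alike. Krt13 was higher at each of the 9 steps between deciles in every library, from 74.4, 98.6 and 95.1 CPM to 5778, 5122 and 5390 CPM. Krt4 had its highest value in the 9th decile in libraries 1 and 2, at 749 and 903 CPM, and in the 10th in library 3, at 479.6 CPM. Krt19 did the same, at 499 and 655 CPM in the 9th decile and 607 CPM in the 10th. Krt15, a type I keratin known from limbal and conjunctival cells, went from 280.2, 756 and 273 CPM to its highest values of 12151, 11831 and 9449 CPM in the 9th decile of all 3 libraries.

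The corneal pair took another course. Krt12 was highest in the 4th, 3rd and 4th deciles, with peaks of 35791, 31535 and 33816 CPM, and ended at 22393, 21546 and 19539 CPM in the latest. Krt5 was highest in the 6th decile, at 12808, 11392 and 10327 CPM. Lypd3, a surface protein known from the suprabasal layers, was highest in the 5th, 7th and 6th deciles. Col17a1, the basal collagen whose promoter is printed above, went from 731, 658 and 611 CPM in the earliest decile to 33.7, 43.2 and 25.3 CPM in the latest. Asprv1 went from 27.0, 56.7 and 9.58 CPM to 16713, 14972 and 16275 CPM, and the membrane mucin Muc4 ended at 1445, 1191 and 1306 CPM. Col17a1, Asprv1 and Muc4 are themselves index genes, so their course describes the index.

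**Figure D3:**
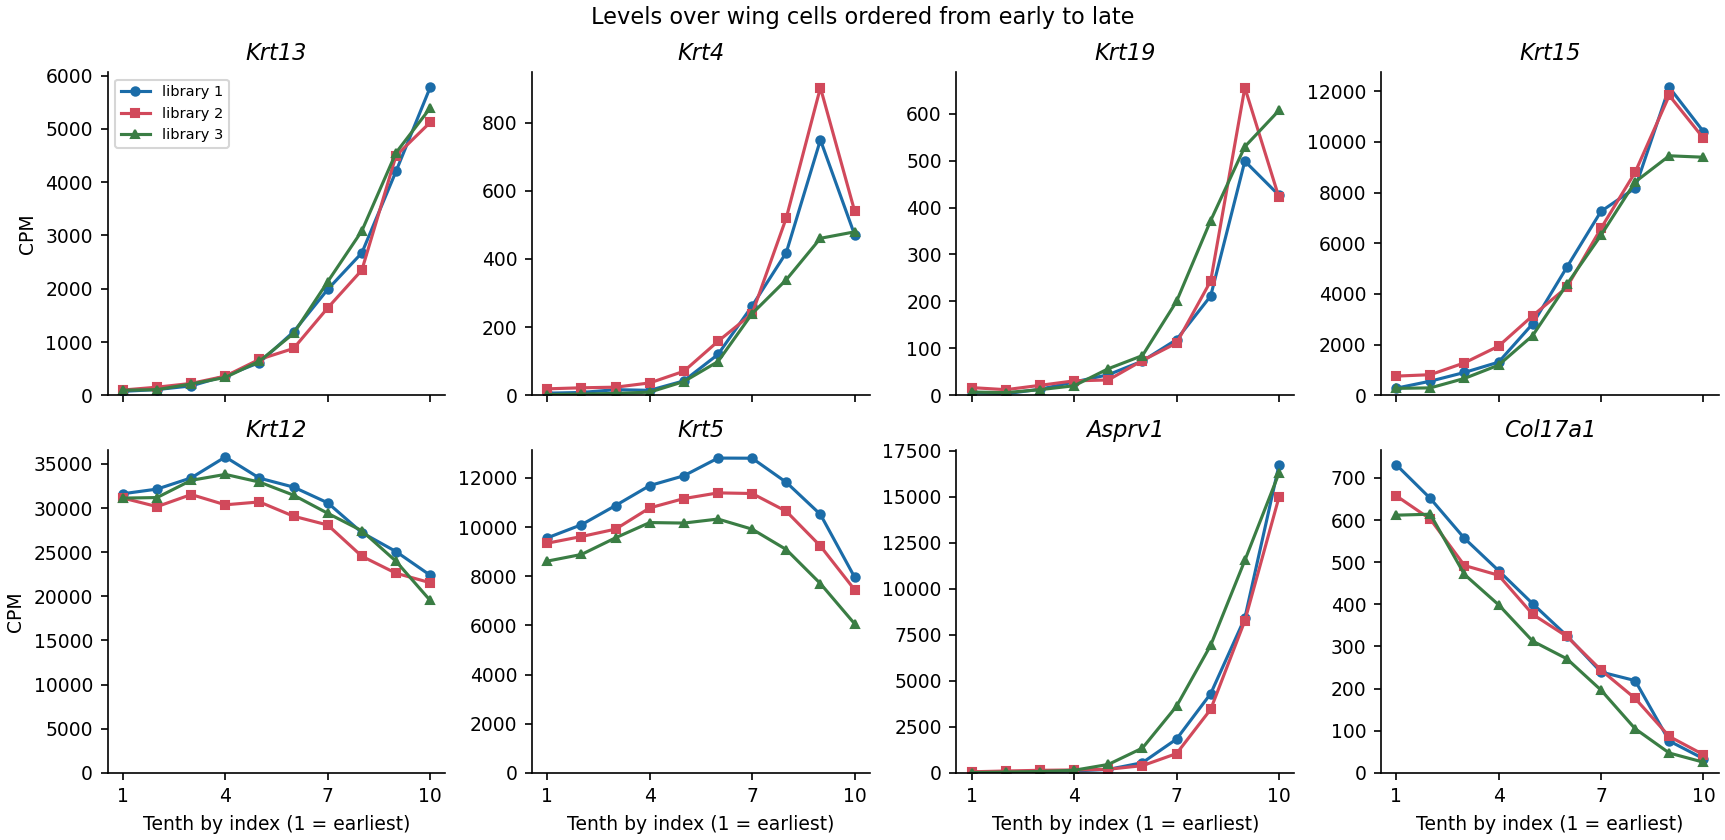
CPM (linear axes from 0) of the 3 mucosal keratins, Krt15, Krt12, Krt5, Asprv1 and Col17a1 by decile of the early-to-late index, with 1 line per library. Krt13 climbs through every decile, Krt15 is highest in the 9th decile, and Krt12 is highest in the 3rd or 4th decile.

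The order was not complete. In the 3 earliest deciles 8, 20 and 34 cells were high, and in the 3 latest 162, 213 and 423 cells were low, which is 16.4%, 20.2% and 21.3% of the cells there. Near the threshold, cells with 1000 to 1500 CPM of the keratins (194, 227 and 344 cells) had a mean index of 0.418, 0.373 and 0.486. Cells with 1500 to 2000 CPM (151, 146 and 256 cells) had 0.529, 0.420 and 0.530. Cells on either side of the cut were thus close in the index, and the sides are ranges of a graded measure. The level of Krt15 also went with k. Within the low side Krt15 had 473, 718 and 501 CPM in cells with no UMI of the 3 keratins and 4123, 4689 and 4251 CPM in cells with 500 to 1500 CPM of them. Within the high side it had 8599, 8280.04 and 7259 CPM in cells with 1500 to 5000 CPM and 13849.6, 14383 and 10950.3 CPM in cells with more. Every library had the same order, and median depth was 14001, 10255.5 and 7638 UMIs in cells with none and 25240.0, 20232 and 12095.5 UMIs in the cells with most.

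Other properties of the cells moved with the course. Mitochondrial UMIs were 1.27%, 1.21% and 1.43% of the median high cell and 1.73%, 1.65% and 1.74% of the median low cell. The doublet score of a cell, the share of simulated doublets among its 30 nearest neighbours, had its highest median in the 7th decile of library 1 (0.4), the 8th of library 2 (0.4) and, equally, the 6th and 7th of library 3 (0.433), and a median of 0.2 in the latest. Without the 10% of cells with the highest scores the index difference was 0.575 and the share difference 88.3 points, so neither was smaller by more than the spread between libraries. High cells showed fewer genes per 2000 UMIs, with 862, 856 and 854 against 892, 889.5 and 881.

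Between high and low wing cells a large part of the transcriptome differed. High cells had more surface-layer, junction, mucin and antimicrobial transcripts, and low cells more basal and ribosomal protein transcripts. The edgeR quasi-likelihood test on sums per library and side, with the library as a block, called 9040 of 12850 genes (70.4%) at an adjusted p under 0.05. Of these 4397 (34.2% of genes tested) were higher and 4643 (36.1%) lower in high cells. The libraries of the 2 sides did not overlap for 56.4% of genes. CPM given with the fold change of a single gene carry the TMM scaling of edgeR, which trims the genes that differ most. Sums over marker or gene sets are scaled to totals alone. With totals alone the median gene moved from -0.03 to -0.30 and 23.9% of the calls were higher in place of 48.6%, so small fold changes in either direction depend on the scaling.

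Krt15, the neighbour of Krt13 on chromosome 11, stood at 2039.9, 2449.6 and 1856 CPM in low cells of libraries 1, 2 and 3 and at 11276, 11907 and 9529 CPM in high cells. No low sum came near a high sum, and the log2 fold change was 2.37 ± 0.04 (standard error, edgeR adjusted p 1.3e-24). Of 14 other epithelial keratins tested, 10 were higher and none lower, with a median log2 fold change of 1.64 beside -0.03 over all genes. Krt6b, a keratin of surface and stressed epithelia, was at 1397, 1334 and 1445 CPM in low and 5431, 5342 and 5255 CPM in high cells. Krt6a and Krt6b are near-identical copies, and reads can be split between them. Krt7, Krt8 and Krt17, keratins of simple, conjunctival or activated epithelia, were rare, with at most 39.6, 30.5 and 20.5 CPM in any high sum, and were higher in high cells by 2.81, 2.25 and 2.54 on the log2 scale.

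For the corneal pair the differences were small and their calls depended on the settings. Krt12 had 29286, 27417 and 29364 CPM in low cells and 28082, 26378 and 27696 CPM in high cells, a log2 difference of -0.07 ± 0.03 (edgeR adjusted p 0.085), and of -0.34 with no scaling beyond totals. It passed the threshold with equal cell numbers, the middle left out, a k threshold of 0.003 and without the highest doublet scores (edgeR adjusted p 0.043, 0.0051, 0.0087 and 0.03, log2 differences from -0.07 to -0.12). Krt5 differed by 0.11 ± 0.04, and by -0.16 with no scaling beyond totals. It missed the threshold without library 1 or library 2 (edgeR adjusted p 0.095 and 0.077). Of 20 genes of corneal identity 11 were higher and 8 lower, and with totals alone 7 were higher and 11 lower. Dapl1 at -1.24 and the retinaldehyde dehydrogenase Aldh1a1 at -1.23 were among the lower ones, and Slurp1, a secreted protein of the Ly6 family, among the higher ones at 0.34.

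The genes with the largest changes included several of the index itself. Of the 12 largest higher changes 5 were late index genes, and of the 12 largest lower changes 8 were early index genes. Ifitm1, an interferon-induced membrane protein, had 317, 626 and 386 CPM in low and 2485, 4573 and 3136 CPM in high cells, a log2 fold change of 2.95 ± 0.04. Psca, a GPI-anchored surface protein, went from 996, 894 and 766 CPM to 6755, 6991 and 6603 CPM. Nccrp1 and Enpp3, an ectonucleotidase, followed with 2.92 and 2.84, and Asprv1 with 2.75. In each of these genes every high sum was above every low sum. Pglyrp1, a secreted peptidoglycan recognition protein that acts on bacteria, rose 6.58-fold, from 348, 461 and 401 CPM to 2229, 3312 and 2479.9 CPM.

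The rest of the 12 were Ifit1bl1 (2.60), Upp1, a uridine phosphorylase (2.54), Cysrt1 (2.49), Adh6a (2.45), the membrane mucin Muc20 (2.44) and the cytochrome P450 gene Cyp2a5 (2.38), all log2 fold changes. Adh6a had an edgeR adjusted p of 0.069 without library 1, and Cyp2a5 one of 0.071 without library 3. Cyp2a5 has a close copy, Cyp2a4, and reads can be split between them.

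Among genes lower in high cells, Mt2, a metal-binding protein, was at 315, 315 and 329 CPM in low cells and 78.1, 83.4 and 87.4 CPM in high cells, and fell by 1.95 ± 0.04 on the log2 scale. Its near copy Mt1 fell by 1.72. Spink7, a protease inhibitor, fell by 1.94, as did Fn1, the matrix protein fibronectin, from 88.7, 95.7 and 77.1 CPM to 23.1, 24.7 and 20.5 CPM. The others were Gja1, the gap junction protein connexin 43 (-1.67), Tns4 of focal adhesions (-1.66), Pygl, the liver form of glycogen phosphorylase (-1.59), Crip1 (-1.50), Glul, glutamine synthetase (-1.50), the taurine transporter Slc6a6 (-1.48), Col17a1 (-1.41) and Elp4 (-1.36). For Mt2 and Fn1 every low sum was above every high sum.

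**Figure D4:**
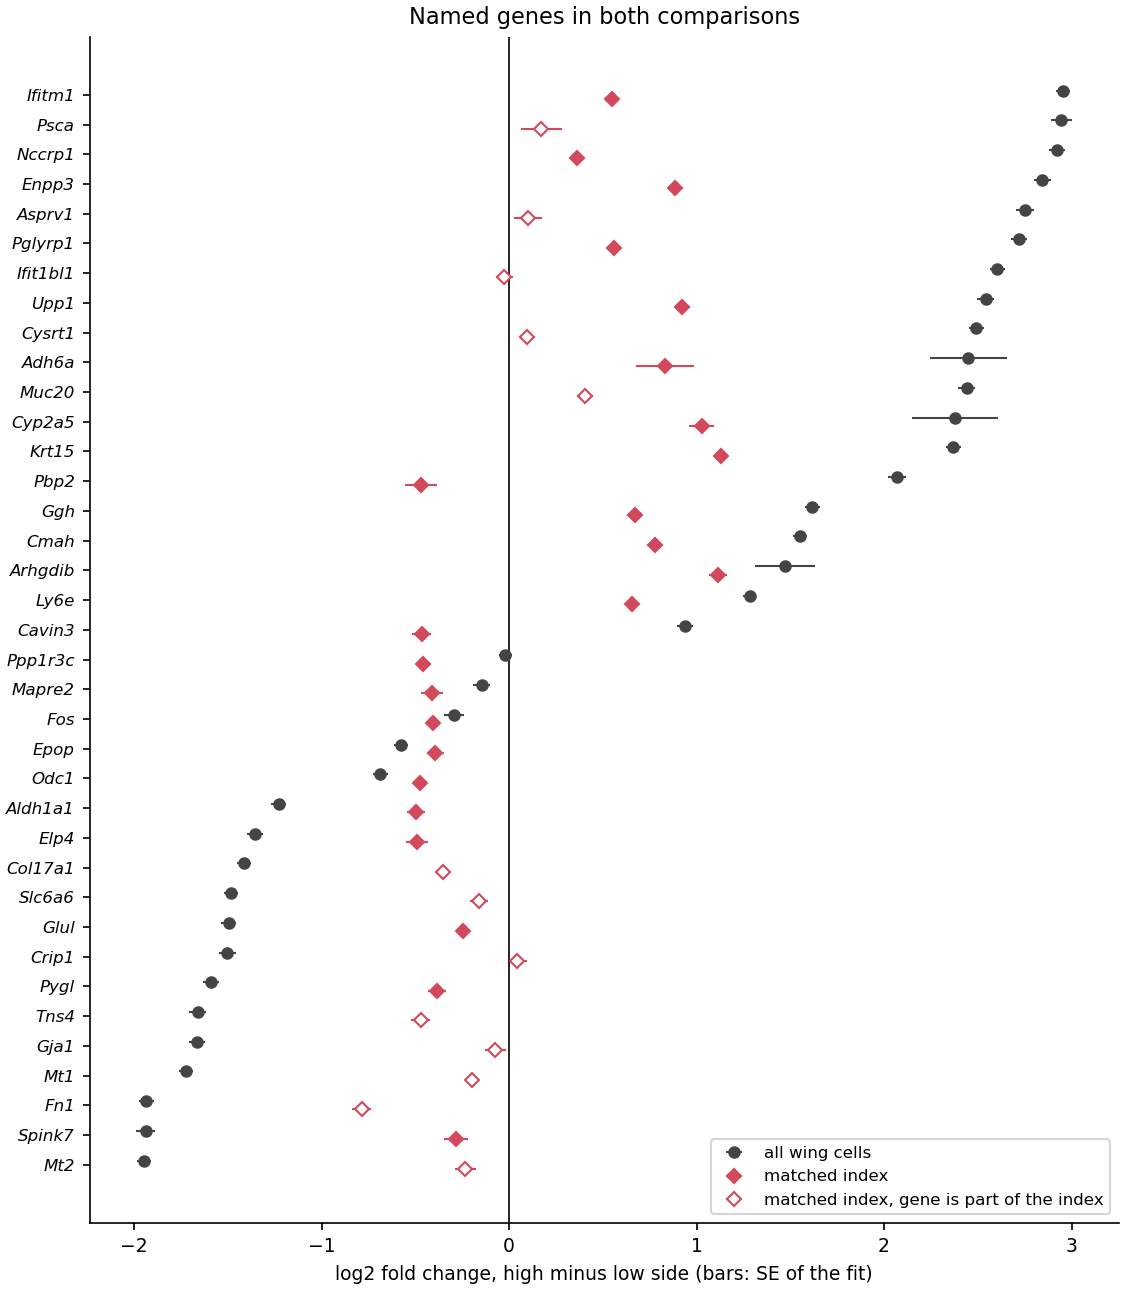
log2 fold changes (high minus low side, with standard errors of the fit) of the named genes in all wing cells and at matched index, with open symbols for genes of the index. Krt15 keeps a change of 1.13 at matched index, and most other leading genes of all wing cells move closer to 0.

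Surface and barrier lists were mostly higher in high cells. This and the following list counts in all wing cells stand beside 34.2% of all genes tested called higher and 36.1% called lower. Of 24 genes of the superficial layer and cornified envelope, 20 rose and 1 fell (median 1.33 on the log2 scale). Lypd2, a small protein of the Ly6 family, had 9421, 10475 and 11183 CPM in low and 16958, 18591 and 20666 CPM in high cells, with no overlap between the sides. Calml3, a calmodulin-like protein of stratified epithelia, differed by 0.53. Krt78, a keratin of differentiated layers, rose by 2.20 and Cnfn, a cornified envelope protein, by 2.04 from low levels. Of 12 membrane mucin and galectin genes 10 were higher and 2 lower, with Muc4 at 2.16, Muc1 at 2.92 and the carbohydrate-binding Lgals3 at 1.14.

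Junction genes went the same way with smaller changes. Of 18 tight junction genes 16 were higher and 2 lower (median 0.74), with Cldn7 at 0.89, F11r at 0.70, Cldn23 at 1.83 and Cldn3 at 1.65. Of 18 desmosome and adherens junction genes 15 were higher and 1 lower (median 0.35), but 7 higher and 8 lower with totals alone. Pkp3, a desmosomal plaque protein, differed by 0.80. Of 17 basal and hemidesmosome genes 11 were lower and 5 higher (median -0.72), with Trp63, the transcription factor of basal cells, at -0.79 and Cav1, the coat protein of caveolae, at -1.50.

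Defence and signalling lists were mixed in size. Of 21 S100, annexin and antimicrobial genes 17 were higher and 3 lower (median 1.03). S100a6, a calcium-binding protein, had 18547, 18297 and 18654 CPM in low and 43273, 44429 and 43674 CPM in high cells. Slpi, an inhibitor of leukocyte proteases, was rare and rose by 3.24. Of 16 cytokine and alarmin genes 11 were higher and 1 lower, among them the cytokine Il18 at 1.17 and Il1rn, a blocker of interleukin 1 signalling, at 2.80, while Mif fell by 1.02. Of 21 interferon response genes 14 were higher and 4 lower, and of 22 proteases and inhibitors 15 were higher and 5 lower.

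The list of the EGF receptor family and its ligands had 8 higher and 5 lower of 14, and among its ligands Ereg rose by 2.48, Areg by 1.87 and Hbegf by 1.86. Notch genes leaned the other way, with 9 of 13 lower and 3 higher, among them the receptor Notch3 at -0.44, the ligand Dll1 at -1.20 and the glycosyltransferase Lfng at -1.25. Of 20 Kruppel-like, grainyhead and related factors 12 were lower and 8 higher, with the C/EBP factor Cebpa at -0.88 and Klf6 at 0.92. S phase genes had 12 lower and 2 higher of 24. G2 and M phase genes had 6 lower and 2 higher of 24, a smaller share lower than the 36.1% of all genes, and at 2000 UMIs per cell 2 higher and none lower of 7. Mcm2, a helicase subunit of DNA replication, fell by 1.16, and Pcna differed by -0.03. Of 16 cell cycle inhibitors 10 were higher and 3 lower, with Cdkn1a at 0.57 and Sfn at 0.43.

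Metabolic lists differed from each other. All 20 ribosomal protein genes were lower (median -0.52), for example Rpl13, from a family with many near-identical pseudogenes, at 7023, 7719.8 and 6986 CPM in low and 4332, 4724 and 4161 CPM in high cells. Of 22 genes of cholesterol and fatty acid synthesis 18 were higher and 1 lower, with the synthase Fdps at 0.93 and the regulator Insig1 at 1.09. Of 20 glutathione and NRF2 genes 13 were higher and 6 lower. Gsto1, a glutathione transferase, had 7987, 7939 and 7749 CPM in low and 27139, 28365 and 25767 CPM in high cells. The 20 respiratory chain genes had 14 higher and 3 lower, but 2 higher and 13 lower with totals alone, so the direction of this list depends on the scaling.

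**Figure D5:**
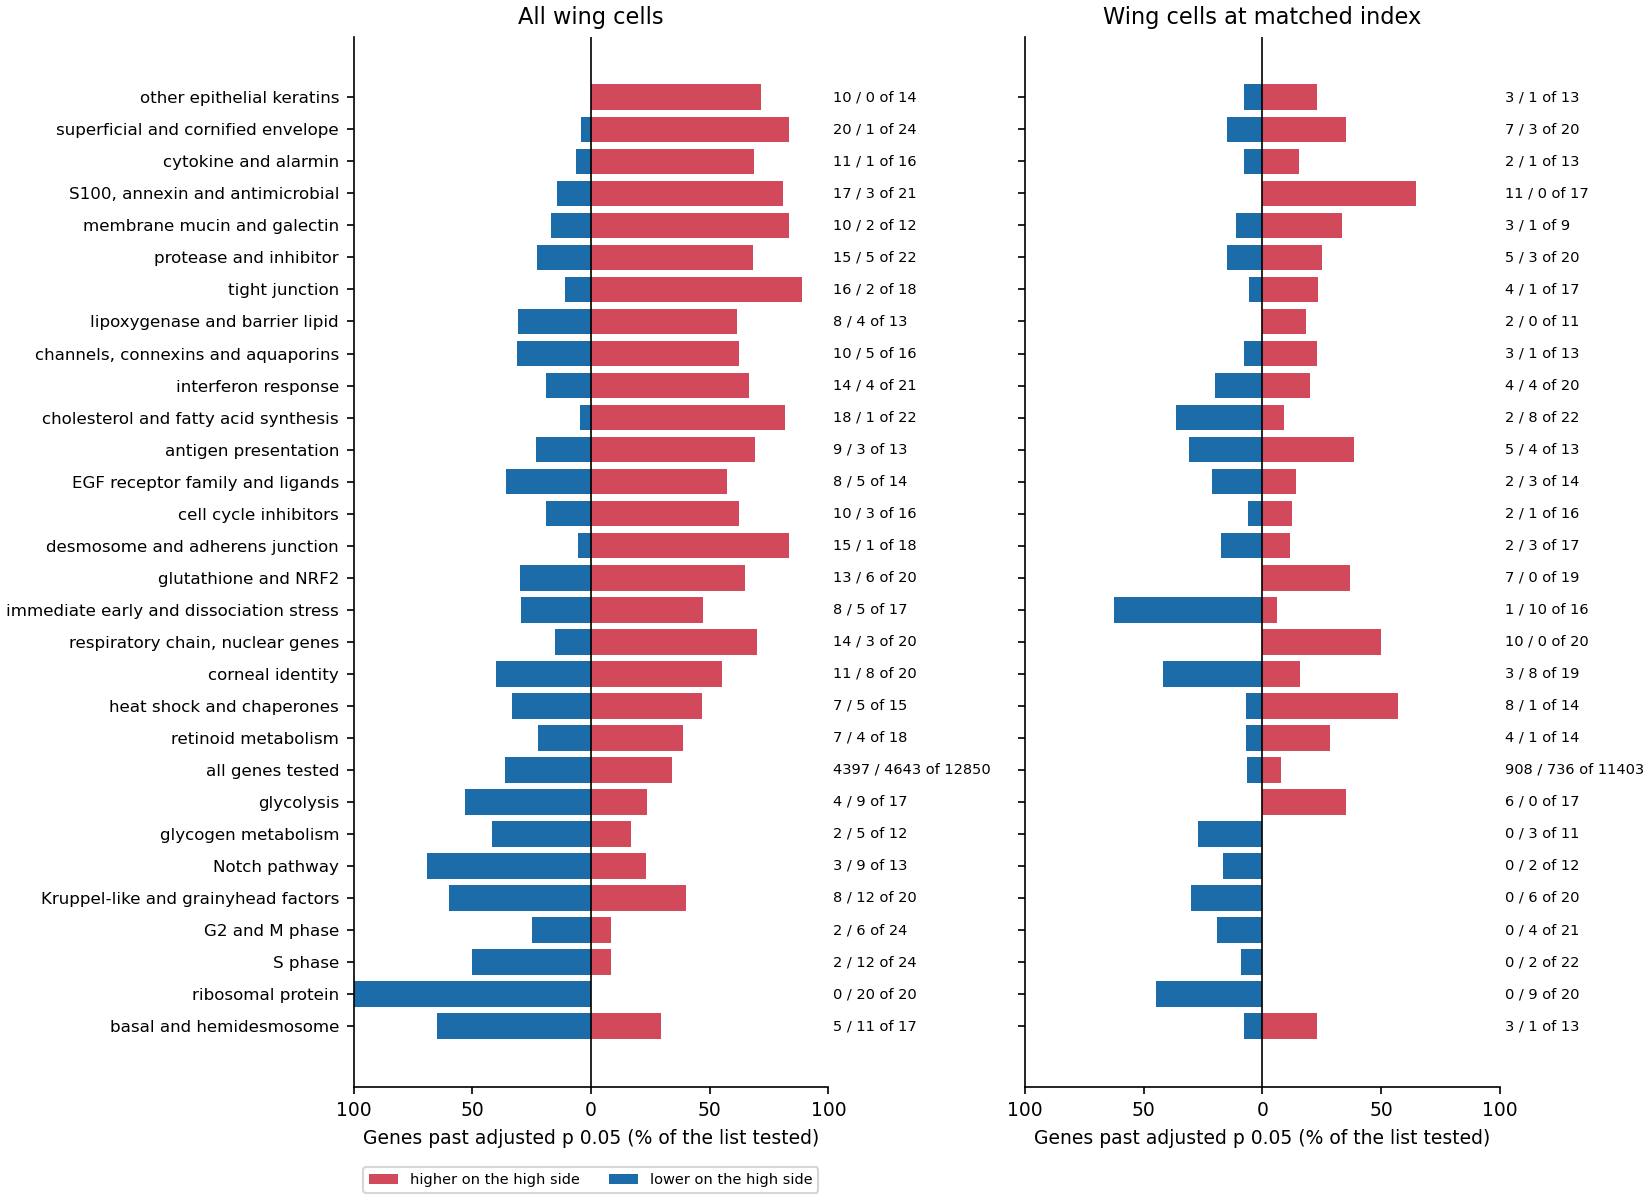
For each gene list, the percent of tested genes called higher (red, to the right) and lower (blue, to the left) in high cells, in all wing cells and at matched index, with the counts beside the bars. The ribosomal protein list has no higher gene in either comparison, and most lists have far fewer calls at matched index.

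The remaining lists were as follows, beside 34.2% of all genes tested called higher and 36.1% called lower. Several of these counts lay near those shares and set the list little apart from all genes. Glycolysis had 9 lower and 4 higher of 17, with Gapdh at -0.17 and Ldha at -0.23, and glycogen metabolism 5 lower and 2 higher of 12. Retinoid metabolism had 7 higher and 4 lower of 18, with the alcohol dehydrogenase Adh7 at -1.13. With totals alone it had 5 higher and 9 lower. Channels, connexins and aquaporins had 10 higher and 5 lower of 16, with the water channels Aqp5 at 0.80 and Aqp3 at 0.50. Lipoxygenase and barrier lipid genes had 8 higher and 4 lower of 13, with Alox12 at 1.15. Immediate early genes had 8 higher and 5 lower of 17, and heat shock genes 7 higher and 5 lower of 15. With totals alone these last pairs were 6 higher and 7 lower, and 5 higher and 9 lower. Antigen presentation genes had 9 higher and 3 lower of 13, with the class I gene H2-D1 at 0.90 and the proteasome subunit Psmb8 at 1.43.

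Markers of other cell types moved with the sides. Immune markers summed to 8.21, 22.4 and 2.99 CPM in low and 0.522, 2.44 and 0.533 CPM in high cells, with 9 of 10 markers in the table and 2 of them at 0 in high cells. Among them the class II genes Cd74 and H2-Aa fell by 3.50 and 3.13. Without the cells of highest doublet score Cd74 differed by -0.32 (edgeR adjusted p 0.43) and H2-Aa by 0.17 (adjusted p 0.78). Of 21 wing cells with at least 3 immune UMIs, 15 were low. The 11 conjunctival markers summed to 13948, 14649 and 13258 CPM in low and 25692, 27191 and 24325 CPM in high cells. Among them Psca, a late index gene, had a mean of 973 CPM in low and 6174 CPM in high wing cells. Its level was 33228 CPM in superficial and 2214 CPM in conjunctival cells, so this sum is not particular to conjunctival cells. The 10 limbal markers, in which Krt15 is the most abundant, summed to 2888, 3386 and 2658 CPM against 10700.5, 10912 and 8992 CPM. Most of this rise was Krt15, with a mean of 2322 CPM in low and 9921 CPM in high cells. Of the 10 markers 3 were called higher and 5 lower, with a median log2 fold change of -0.36. Goblet cell markers, 8 of 12 in the table, summed to at most 20.6 CPM, and melanocyte markers, 5 of 8 in the table, to at most 116 CPM. Stromal and endothelial markers, of which 2 each were in the table, and red cell markers, of which 3 were, summed to at most 0.464, 0.773 and 4.77 CPM. Nerve and Schwann cell markers, 6 of 7 in the table, summed to 73.3, 78.9 and 58.0 CPM in low and 104, 122 and 89.7 CPM in high cells, with 2 of them at 0 in high cells. Among epithelial sets, basal markers summed to 751, 729 and 657 CPM against 333, 323 and 300.5 CPM, cycling markers to 68.9, 65.2 and 67.0 CPM against 46.4, 47.1 and 51.7 CPM, and superficial markers to 9762, 10634 and 10935 CPM against 11747, 12217 and 13309 CPM. All 6 superficial markers tested were called higher, with a median log2 fold change of 2.10, and Muc4, Muc20 and Cnfn in this set are late index genes. Slurp1, also in the set, had a mean of 11294 CPM in low cells at matched index, so the superficial sum says little of the rarer markers. The part of other cell types in the result was not tested.

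Because so many genes follow the course, high and low cells were also compared at the same place on it. Equal numbers of high and low cells were drawn per library and decile of the index, 468, 559 and 1106 cells of each side. Their mean index was 0.484 and 0.468, 0.441 and 0.423, and 0.589 and 0.579 in high and low cells, a small remaining difference in each library. The 100 index genes were left out of the counts. Of 11403 genes tested 1644 (14.4%) were called by edgeR, 908 (7.96%) higher and 736 (6.45%) lower in high cells. The libraries of the 2 sides did not overlap for 1373 genes. The count was 989 without library 1, 1089 without library 2, 419 with DESeq2, 133 at 2000 UMIs per cell and 13 with no replicate block. With the index built from the fixed superficial and basal markers in place of the chosen genes it was 6212.

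Krt15 led the matched comparison. It had 3794, 4294 and 3874 CPM in low and 8942, 9235 and 8050.3 CPM in high cells, a log2 fold change of 1.13 ± 0.03. High and low sums did not overlap. With no replicate block Krt15, Cmah and Muc1 kept their call, and so did the immune genes H2-Aa, H2-Ab1 and Cd74, given below, among the genes named here. Cmah, a sialic acid hydroxylase, had 77.8, 81.4 and 78.2 CPM against 133, 142 and 132 CPM. Muc1 had 8.32, 8.46 and 5.42 CPM against 17.5, 15.4 and 16.1 CPM. With cells thinned to 2000 UMIs Muc1 lost its call (log2 fold change 0.52, edgeR adjusted p 0.64).

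The other leading genes were Arhgdib (1.11), Cyp2a5 (1.03), Upp1 (0.92), Enpp3 (0.89), Ggh, a folate hydrolase (0.67), and Ly6e, a GPI-anchored protein (0.65). Arhgdib rose from 35.8, 46.4 and 26.4 CPM to 76.7, 96.6 and 60.3 CPM. In Arhgdib every high sum was above every low sum. Cyp2a5 missed the threshold with 20 bins of the index (edgeR adjusted p 0.064) and at a k threshold of 0.003 (0.11), and Enpp3 and Ly6e did at a k threshold of 0.001 (0.12 and 0.15). Serpinb3a, a serine protease inhibitor, was rare, with 4.72, 3.18 and 2.26 CPM against 11.8, 18.2 and 9.31 CPM. Krt17 had 1.55, 3.04 and 0.737 CPM against 3.37, 14.8 and 3.89 CPM, with library 2 above the others on the high side, and Krt14 differed by 0.46. Krt6b differed by 0.20 and Krt6a by 0.03 (edgeR adjusted p 0.63), where all wing cells had given 1.94 and 1.08. Of 13 other epithelial keratins tested at matched index 3 were higher and 1 lower. Krt7 was not called (0.65, edgeR adjusted p 0.56). Krt14 missed the threshold with cells thinned to 2000 UMIs and with the index from fixed markers (edgeR adjusted p 0.33 and 0.17).

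Lower in high cells at matched index were Aldh1a1 (-0.50), Odc1, the first enzyme of polyamine synthesis (-0.48), Pbp2 (-0.47), Cavin3 of caveolae (-0.47), Ppp1r3c, a glycogen-targeting phosphatase subunit (-0.46), Mapre2, a microtubule end-binding protein (-0.41), the immediate early factor Fos (-0.41) and Epop (-0.39). Odc1 had 193, 184 and 218 CPM in low and 134, 133 and 160.3 CPM in high cells, with no overlap between the sides. Pbp2 and Cavin3 were not called in a second random draw (edgeR adjusted p 0.071 and 0.098) or without the highest doublet scores. In all wing cells both had been higher in high cells, by 2.07 and 0.94. Krt12 differed by -0.11 ± 0.03 (edgeR adjusted p 0.0091), and missed the threshold without library 1 or library 3 (adjusted p 0.097 and 0.087).

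Immune markers moved with the matched sides too. All 4 immune markers tested were lower in high cells. Cd74 had 4.35, 8.86 and 3.63 CPM in low and 0.264, 0.301 and 0.0564 CPM in high cells. H2-Aa had 1.93, 2.23 and 1.74 CPM against 0.0660, 0.0754 and 0, and H2-Ab1 1.37, 2.37 and 2.05 CPM against 0, 0.151 and 0. All 3 missed the threshold with 20 bins (edgeR adjusted p 0.38, 0.11 and 0.067) and at a k threshold of 0.001 (0.9, 0.88 and 0.95). Without the 21 wing cells that held at least 3 immune UMIs, of which 15 were low cells, 1377 genes passed at matched index against 1644 with them. The part of immune RNA in the other matched differences was not tested.

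Some lists kept their lean at matched index and others turned. Over all genes tested there, 7.96% were called higher and 6.45% lower. Of 17 S100, annexin and antimicrobial genes 11 were higher and none lower, with S100a6 at 0.22 and Pglyrp1 at 0.56. Of 19 glutathione and NRF2 genes 7 were higher and none lower, with Gsto1 at 0.25. Of 20 respiratory chain genes 10 were higher and none lower, and of 14 heat shock genes 8 were higher and 1 lower. All 9 called ribosomal protein genes of 20 were lower. Of 16 immediate early genes 10 were lower and 1 higher, of 22 cholesterol and fatty acid genes 8 lower and 2 higher, and of 20 Kruppel-like and related factors 6 lower and none higher, among them Klf4 at -0.33. Corneal identity genes had 8 lower and 3 higher of 19, with Slurp1 at -0.23 and Aldh3a1, an aldehyde dehydrogenase that is abundant in the cornea, at 0.39. The superficial list had 7 higher and 3 lower of 20, with Spink5, a protease inhibitor, at 0.61. With no replicate block none of these lists had a called gene.

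The levels of the genes that led at matched index were set beside those in other classes. Krt15 had 25395 CPM in conjunctival cells, 9921 ± 1047 CPM in high wing cells, 8920 CPM in limbal cells, 3361 ± 715 CPM in superficial cells, 2322 CPM in low wing cells and 204 CPM in basal cells (means of 3 libraries). High wing cells thus stood above both low wing cells and superficial cells. Cmah was at 266 CPM in conjunctival, 135 ± 5.24 CPM in high wing, 101 CPM in limbal, 60.9 CPM in superficial and 55.6 CPM in low wing cells. Ggh had 320, 162, 65.7, 106 and 63.6 CPM in the same order of classes. For Cyp2a5 and Arhgdib limbal cells stood above high wing cells, with 761, 88.4, 146, 25.6 and 20.96 CPM and 337, 87.8, 127, 64.8 and 38.5 CPM. Enpp3 and Ly6e had more in superficial than in high wing cells, 313 against 228 CPM and 711 against 257 CPM, while Upp1 had 192 ± 57.0 and 183 ± 53.4 CPM, a difference within the spread between libraries. Conjunctival cells had the highest mean of Enpp3, Ly6e and Upp1, with 450, 810 and 622 CPM, and limbal cells had 58.2, 504 and 101 CPM.

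A set of 50 genes higher in conjunctival than in both superficial and basal cells, chosen with no wing cell and no keratin, was then followed in the sides. Arhgdib, Cyp2a5, Cmah and Serpinb3a, named above at matched index, belong to this set, so the set is not independent of them. Their higher level in conjunctival than in superficial and basal cells follows from how the set was chosen. In all wing cells 40 were higher and 5 lower in high cells (median 0.52), and with totals alone 33 were higher and 13 lower (median 0.25). At matched index 32 were higher and 1 lower (median 0.20, beside -0.01 over all genes). The counts were 28 and 1 without the 10% of cells with the highest conjunctival score, and 33 and 1 without the highest doublet scores. The conjunctival score of a cell was built from these same 50 genes. Leaving out cells by it removes them by the measure itself, so that setting cannot check the set. With no replicate block 2 were higher and none lower, with DESeq2 25 and none, and at 2000 UMIs per cell 11 of 49 and none.

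In CPM scaled to totals alone, the set summed to 11311, 11365 and 10442 in high cells and 9878, 9737 and 9508 in low cells. These sums lack the TMM scaling of the median fold changes above and are not on their scale. Every high sum was above every low sum. The mean log2 difference was 0.18 (0.185 ± 0.0449, SD, n = 3 libraries), higher in 3 of 3 libraries, with an exact sign-flip permutation p of 0.25, the smallest possible. The part of conjunctival cells or of their free RNA in these sums was not tested.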

How the data were processed

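Single cells of corneal epithelium were captured with a Chromium 3′ kit, per the labels' protocols. Per the submitters' processing notes, the tools were Cell Ranger 5.0.0 and Seurat 4 and the build was mm10. Cell filters, annotation release and doublet handling were not given in the sources used here. Authors' files, as deposited, hold raw whole-number UMI counts for each cell and gene, not normalized, and a table with the cell type label of each cell. Library names end in the sample number for libraries 2 and 3, and library 1 is the name that was left.

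UMIs were summed per library and side of wing cells. The edgeR 4.0.16 quasi-likelihood test (R 4.3.3, TMM, filterByExpr, robust fit, Benjamini-Hochberg adjustment over all genes tested, threshold 0.05) had the library as a block, since both sides come from the same library and are paired by construction. Errors of fold changes are standard errors of the fit. Single values were compared with exact two-sided sign-flip tests over 3 libraries, which cannot go below 0.25. Counts of calls leave out Krt4, Krt13 and Krt19. The index genes had an adjusted p under 0.05 and the same floor of abundance as the named genes, with no keratin, mitochondrial or ribosomal protein gene. The scripts were tested on simulated data. Of 17931 symbols 17641 matched GENCODE release 21.

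The members and lists (29 gene lists with 570 genes, 553 in the table, and 14 marker sets) were chosen with earlier results of these data known. Named are the 12 largest higher and lower changes (8 of each at matched index) whose sign is shared by the 3 libraries and whose mean log2 CPM is 5 or more, up to 4 members of a list, and the markers. The libraries pool corneas of 2, 2 and 7 mice, and p-values measure the spread between these libraries only. Intervals and limits for 0 counts (3 counts) cover counting error alone. Alternatives were DESeq2 1.42.0, other scalings, filters, thresholds, depths and indices, and leaving out libraries or cells.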

Additional observations from a re-analysis of the deposited data

How the results depend on the processing

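In all wing cells the 9040 calls became 5894 with no replicate block and 4945 with every cell thinned to 2000 UMIs, and lay between 8076 and 8563 when 1 library was left out. With totals alone 2462 calls were higher and 7845 lower. Of 98 named genes, only Krt5 (-0.16 with totals alone) and H2-Aa (0.17 without the highest doublet scores) reversed among the alternatives run.

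At matched index the 1644 calls became 419 with DESeq2, 1006 with the cells of middle k left out, 872 at a threshold of 0.001, 133 thinned to 2000 UMIs and 13 with no replicate block. They became 6212 with the index from fixed markers, and lay between 989 and 1455 when 1 library was left out. With totals alone 644 were higher and 1083 lower. With the replicate block left out, 48 of 57 named genes lost their call. With the index from fixed markers Pbp2 (1.01), Cavin3 (0.39), Ndrg1 (0.54) and Scd2 (0.0761) reversed. That index uses 6 late and 7 early genes. Thinning leaves fewer counts, and the cause of the other changes was not tested.

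The index difference of 0.564 was 0.0551 with the index from fixed markers, 0.697 with the middle left out, 0.539 thinned and 0.592 without the highest conjunctival scores, and 0.557 to 0.573 when 1 library was left out. The share difference of 88.6 points was 61.5 with the index from fixed markers, 94.4 with the middle left out, 82.3 thinned and 77.5 at a threshold of 0.003, and 87.1 to 89.7 when 1 library was left out. The log2 difference of the conjunctival set was 0.239 with the middle left out and 0.131 without the highest conjunctival scores, and 0.165 to 0.209 when 1 library was left out. All kept their direction. Leaving out cells with immune UMIs and cells with the highest conjunctival scores were added after the data were seen. The conjunctival score uses the genes of the conjunctival set, so its removal cannot check that set.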
